A study of Mus musculus with 5 samples.

Results

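The antioxidant response genes controlled by the transcription factor Nrf2 were followed in hepatocytes of regenerating and young mouse liver. The set held 8 of the 31053 genes counted: Nfe2l2, Nqo1, Gclc, Gclm, Txnrd1, Srxn1, Hmox1 and G6pdx. They were chosen by name as Nrf2 itself and well known targets, and each was found by its symbol. Droplet-based single-cell RNA sequencing (10x v3 chemistry) had been run on liver cells of C57BL/6J mice in 5 libraries, 1 per group. The groups were unoperated mice at postnatal day 14 (P14), an adult control, and adults that had lost most of the liver by surgery (partial hepatectomy, PHx) 24 h, 48 h or 96 h earlier. Mice were 8 weeks old at surgery, and no group carried an engineered allele. Perfusion had released the cells, dead cells had been removed with a kit, and the labels give neither sex nor number of animals.

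Nrf2, the protein made from Nfe2l2, is held in the cytoplasm by Keap1 and degraded in unstressed cells. Oxidants and electrophiles that modify Keap1 free Nrf2, which pairs with a small Maf protein and binds antioxidant response elements in its target genes, while Bach1 competes for the same elements. In liver these targets make glutathione, reduce thioredoxin and peroxiredoxins, clear quinones and haem, and supply NADPH.

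The members lie apart in the genome (GRCm38, the build also called mm10). Nfe2l2 and Srxn1 are on chromosome 2, Nqo1 and Hmox1 on 8, Gclm on 3, Gclc on 9, Txnrd1 on 10 and G6pdx on X, and all are protein coding. RefSeq promoter windows of 300 bases, from 250 before to 50 after a transcript start, were matched for 6 of the 8 members, with 8 windows in all because Txnrd1 has 3. The core of the antioxidant response element was searched as TGACNNNGC on both strands, and an extended form as TGANTCAGC. The core letters were in 12.4% of 32851 RefSeq promoter windows and the extended letters in 1.19%. Among the members, the core letters occurred in the windows of Nfe2l2, Gclm, Srxn1 and G6pdx and in the second of Txnrd1. The extended letters occurred in Srxn1 only. Neither occurred in the window of Nqo1 or in the other two of Txnrd1. The 250 bases before the start are printed for 4 members that the results turn on: Srxn1 and Txnrd1, which were highest at 24 h, Gclm, which stood close to the control there, and Nqo1, which was at least 2-fold above the control after PHx and has no match. They read 5′ to 3′ along the gene, with motif matches in capitals, and come from GRCm38.p6 at chr2:152105274-152105523, plus strand (Srxn1), chr10:82858956-82859205, plus strand (Txnrd1, the second window), chr3:122245307-122245556, plus strand (Gclm) and chr8:107403206-107403455, minus strand (Nqo1).
Srxn1: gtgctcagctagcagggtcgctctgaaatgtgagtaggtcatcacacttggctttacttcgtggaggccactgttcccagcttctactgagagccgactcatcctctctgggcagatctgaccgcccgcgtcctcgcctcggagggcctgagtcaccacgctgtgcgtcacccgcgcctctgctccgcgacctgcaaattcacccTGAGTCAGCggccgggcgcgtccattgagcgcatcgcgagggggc
Txnrd1: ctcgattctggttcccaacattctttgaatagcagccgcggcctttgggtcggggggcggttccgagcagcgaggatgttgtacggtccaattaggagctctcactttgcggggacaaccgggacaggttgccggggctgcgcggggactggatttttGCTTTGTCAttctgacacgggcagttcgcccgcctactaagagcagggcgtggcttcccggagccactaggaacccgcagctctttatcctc
Gclm: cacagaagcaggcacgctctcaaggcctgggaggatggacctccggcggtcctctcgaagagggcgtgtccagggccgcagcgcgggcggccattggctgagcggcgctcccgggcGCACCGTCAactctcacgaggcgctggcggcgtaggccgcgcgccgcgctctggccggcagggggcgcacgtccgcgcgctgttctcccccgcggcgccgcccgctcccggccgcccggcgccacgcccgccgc
Nqo1: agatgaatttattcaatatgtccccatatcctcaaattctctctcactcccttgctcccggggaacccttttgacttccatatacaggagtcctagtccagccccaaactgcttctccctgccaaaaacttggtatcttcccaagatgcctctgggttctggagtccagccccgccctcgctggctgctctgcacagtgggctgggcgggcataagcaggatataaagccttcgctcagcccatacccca
In Srxn1 the extended match TGAGTCAGC began 45 bases before the start, and its core match GCTAGGTCA, on the opposite strand, lay beyond the start and is not printed. In Txnrd1 the match GCTTTGTCA began 92 bases before the start, and in Gclm GCACCGTCA began 134 bases before it, both on the opposite strand. These are matches of letters, not measured binding.

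Hepatocytes were barcodes with at least 5000 unique molecular identifiers (UMIs, counts of single captured RNA molecules), 10% to 30% mitochondrial UMIs and at least 1% of UMIs from Alb, Apoa1 and Ttr. P14 gave 2106 of them, the adult control 925, and the libraries after PHx 1170 (24 h), 719 (48 h) and 771 (96 h), or 5691 in all. Hepatocyte genes outside the rule were abundant in every library, with Fga, a fibrinogen chain, between 2330 and 9909 CPM (UMI counts scaled to the size of each library). Median depth ran from 18527 UMIs in the adult control to 38922.5 in P14, and pairs of libraries shared 0 to 2 hepatocyte barcodes. Free RNA amounted to between 0.818% and 7.17% of that depth, the most in the adult control. At 48 h, 35.2% of hepatocytes had UMIs of at least 3 markers of another cell class, mostly neutrophil markers, against 1.56% to 7.18% in the other libraries. The 5 libraries also differed in ways the labels do not explain. The adult control carries another code in its sample description than the other 4 libraries, so an effect of what that code stands for and one of the control state cannot be told apart. Hepatocytes of P14 had 840 CPM of Xist and no Ddx3y, whereas the adult libraries had at most 0.0744 CPM of Xist and 112 to 140 CPM of Ddx3y, so age and the pattern of sex-linked genes cannot be told apart. With 1 library per group there is no replicate spread and no test. All intervals are 95% intervals of counting error only, apart from the bounds given beside medians of the members. Differences between single animals or preparations are not covered by any of these. Levels are CPM of summed hepatocyte counts over non-mitochondrial UMIs, and ratios are log2 of (CPM + 1) over the adult control, which all 4 comparisons share.

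**Figure D1:**
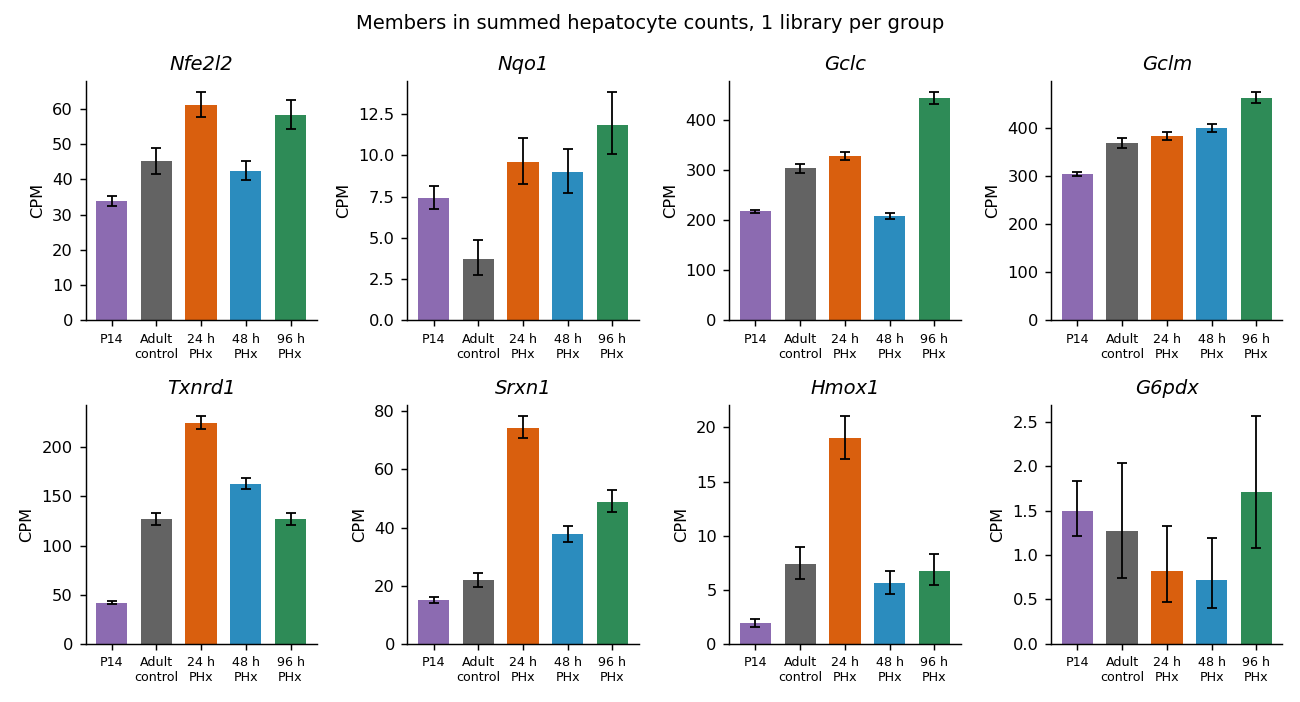
Hepatocyte level of each member (vertical axis, CPM of summed counts) in the 5 libraries (horizontal axis, 1 library per group); bars start at 0 and error bars are 95% Poisson intervals of counting error. Srxn1, Txnrd1 and Hmox1 were highest at 24 h, Gclc, Gclm and Nqo1 at 96 h, and the intervals of G6pdx overlap between libraries that are neighbours in level.

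Nfe2l2, the gene of Nrf2 itself, varied least of the targets and their regulator apart from Gclm. It was at 33.9 CPM (32.5 to 35.4) in P14, 45.1 CPM (41.6 to 48.9) in the control, 61.2 CPM (57.8 to 64.8) 24 h after PHx, 42.5 CPM (39.7 to 45.4) at 48 h and 58.3 CPM (54.3 to 62.5) in the 96 h library. The highest library was 1.80-fold above the lowest. The 24 h and 96 h values overlapped each other, as did those of the adult control and 48 h, and P14 lay below all others. Over the adult control the log2 ratio was 0.43 (0.29 to 0.57) 24 h after PHx, -0.09 (-0.23 to 0.06) at 48 h and 0.36 (0.21 to 0.51) in the 96 h library. When only hepatocytes with 10% to 20% mitochondrial UMIs were used, which left 53 cells at 96 h and 87 in the adult control, the 24 h ratio was 0.085 and the 96 h ratio -0.27. In hepatocytes without signs of the cell cycle (non-cycling) the 24 h ratio was 0.10 and the 48 h ratio -0.77. Regulation of Nrf2 acts mainly on its protein, which these counts do not measure.

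Gclc and Gclm encode the catalytic and the modifier subunit of glutamate-cysteine ligase, the rate-limiting enzyme of glutathione synthesis. Gclc was at 217 CPM in P14, 303 CPM in the control, 328 CPM 24 h after PHx, 208 CPM at 48 h and 443 CPM in the 96 h library. Its interval at 48 h (202 to 215) overlapped only that of P14 (214 to 221), and its value at 96 h (432 to 455) stood above all others. Gclm was at 303 CPM in P14, 368 CPM in the control, 383 CPM 24 h after PHx, 399 CPM at 48 h and 462 CPM in the 96 h library. The subunits thus had different courses: at 48 h the log2 ratio over the adult control was -0.54 (-0.60 to -0.48) for Gclc and 0.12 (0.07 to 0.17) for Gclm. From 48 h to 96 h Gclc was 2.13-fold higher and Gclm 1.16-fold higher. At 24 h both stood close to the control, 1.08-fold above it for Gclc and 1.04-fold for Gclm. Those 24 h differences turned negative in non-cycling hepatocytes (log2 ratios -0.06 and -0.02) and with a mitochondrial range of 0% to 30% (-0.01 and -0.03). The wider range took in 1498 barcodes at 24 h and 1075 in the control.

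Txnrd1, the cytosolic thioredoxin reductase, and Srxn1, sulfiredoxin, which restores overoxidised peroxiredoxins, were both highest at 24 h. Txnrd1 was at 41.7 CPM (40.1 to 43.3) in P14, 127 CPM (121 to 134) in the control, 225 CPM (218 to 232) 24 h after PHx, 163 CPM (158 to 169) at 48 h and 127 CPM (121 to 133) in the 96 h library. Only the adult control and 96 h overlapped, so that the level at 96 h could not be separated from that of the control. The log2 ratios were 0.82 (0.74 to 0.90) 24 h after PHx, 0.35 (0.27 to 0.44) at 48 h and -0.01 (-0.10 to 0.09) in the 96 h library. In non-cycling hepatocytes the 24 h ratio was 0.50 and the 48 h ratio -0.03.

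Srxn1 was at 15.0 CPM (14.1 to 16.0) in P14, 21.9 CPM (19.4 to 24.5) in the control, 74.5 CPM (70.7 to 78.4) 24 h after PHx, 37.7 CPM (35.1 to 40.4) at 48 h and 48.9 CPM (45.2 to 52.8) in the 96 h library. No 2 libraries overlapped, and the order was 24 h, 96 h, 48 h, adult control, P14. At 24 h it was 3.41-fold above the adult control, with a log2 ratio of 1.72 (1.55 to 1.90) that ranged from 1.33 to 1.87 over the alternative settings. The 48 h ratio was 0.76 (0.57 to 0.95) and the 96 h ratio 1.13 (0.93 to 1.32). A single hepatocyte held 59 of the 657 Srxn1 UMIs at 96 h, and without it the ratio was 1.00, just under the 2-fold mark.

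Nqo1, a reductase that detoxifies quinones, was lowest in the adult control. It was at 7.42 CPM (6.77 to 8.11) in P14, 3.68 CPM (2.72 to 4.86) in the control, 9.58 CPM (8.26 to 11.1) 24 h after PHx, 8.98 CPM (7.74 to 10.4) at 48 h and 11.8 CPM (10.1 to 13.8) in the 96 h library. The adult control, with 49 UMIs in all, did not overlap any other library, and the other 4 overlapped from neighbour to neighbour. The log2 ratio was 1.18 (0.80 to 1.56) in the 24 h library, 1.09 (0.71 to 1.47) in the 48 h library and 1.46 (1.06 to 1.85) in the 96 h library. These were 0.82, 0.37 and 0.94 in non-cycling hepatocytes, and 2.29, 2.51 and 2.29 with 10% to 20% mitochondrial UMIs. That mitochondrial range left 87 of the 925 control hepatocytes, so those ratios rest on only a part of the 49 control UMIs.

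Hmox1, haem oxygenase 1, which opens the haem ring, was at 1.90 CPM (1.58 to 2.27) in P14, 7.36 CPM (5.97 to 8.97) in the adult control and 19.0 CPM (17.1 to 21.0) at 24 h. It was at 5.62 CPM (4.64 to 6.73) at 48 h and 6.77 CPM (5.45 to 8.31) at 96 h. The 24 h library stood above all others and P14 below all others, and the remaining 3 overlapped from neighbour to neighbour. The log2 ratio over the adult control was 1.26 (0.97 to 1.56) 24 h after PHx, -0.34 (-0.68 to 0.01) at 48 h and -0.11 (-0.48 to 0.27) in the 96 h library. The 96 h level rested on 1 hepatocyte with 46 of the 91 UMIs: the other 770 hepatocytes had 3.35 CPM, a log2 ratio of -0.94. With 10% to 20% mitochondrial UMIs the 48 h ratio was 0.62; the 96 h ratio was then 3.05, but that hepatocyte is 1 of the 53 cells kept there, so the value rests on it.

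Hmox1 is abundant in macrophages that clear haem, and macrophage markers were therefore set beside it. Their summed level in hepatocytes was 8.49 CPM in the adult control and 0.893 to 1.28 CPM in the other 4 libraries, with 5 to 9 of 9 markers detected and Timd4 at 0 in all but the adult control. In P14, Hmox1 was at 4.70 CPM (2.03 to 9.25) in the 51 hepatocytes with a macrophage marker UMI and 1.83 CPM (1.51 to 2.20) in the 2055 without. In the control it was at 11.2 CPM (6.64 to 17.7) in 103 hepatocytes with such a UMI and 6.83 CPM (5.42 to 8.50) in 822 without. At 24 h it was at 14.7 CPM in 20 with, from 6 UMIs, and 19.1 CPM (17.2 to 21.2) in 1150 without. At 48 h the values were 5.78 CPM in 19 with and 5.61 CPM in 700 without, and at 96 h 0 UMIs were counted in 12 with and 6.89 CPM in 759 without. Neutrophil markers summed to 27.5 CPM in P14 hepatocytes, 11.0 CPM in the control, 102 CPM at 24 h, 190 CPM at 48 h and 21.4 CPM at 96 h. Monocyte or dendritic cell markers summed to 6.35, 11.8, 16.7, 16.8 and 5.06 CPM in the same order. At 24 h, barcodes with neutrophil markers had 43.0 CPM of Hmox1 and those with monocyte or dendritic cell markers 302 CPM. The part of RNA of these cell classes in the Hmox1 ratios was not tested. At the measured amount of free RNA, 12% of the Hmox1 UMIs in control hepatocytes would come from it, the highest such share of any member and library.

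G6pdx, glucose-6-phosphate dehydrogenase, which feeds the pentose phosphate pathway and yields NADPH, was near the limit of detection. Between 15 and 97 UMIs were counted per library, or 0.720 to 1.71 CPM, and intervals overlapped between all neighbours in the order of levels. G6pd2, a gene similar to G6pdx, had 0 UMIs in all hepatocytes. The G6pdx ratios over the adult control had intervals that held 0 in all 4 comparisons. From 48 h to 96 h its log2 ratio was 0.66 (0.13 to 1.13), from 15 and 23 UMIs.

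**Figure D2:**
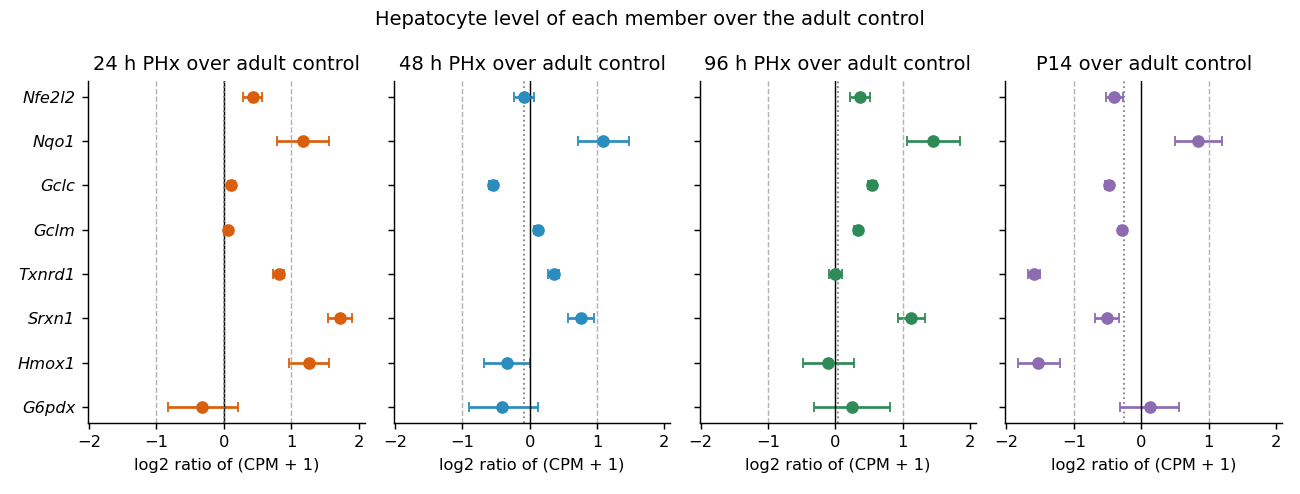
Log2 ratio of (CPM + 1) over the adult control (horizontal axis) for each member (vertical axis) in 4 comparisons that share that control; bars are 95% intervals of counting error, dashed lines mark 2-fold and the dotted line the median of all genes. At 24 h Srxn1, Hmox1 and Nqo1 lie right of the 2-fold line, and in P14 Txnrd1 and Hmox1 lie left of it.

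At 24 h the median log2 ratio of the 8 members was 0.62 (0.51 to 0.73) over the adult control, beside -0.00086 over the 9028 genes that reached 5 CPM in at least 1 of the libraries compared. In this and the other comparisons 7 of the 8 members reached that level, all but G6pdx. Nqo1, Srxn1 and Hmox1, 3 of these 7, were at least 2-fold higher on the log2(CPM + 1) scale and none was 2-fold lower, whereas 8.51% of all genes were 2-fold higher and 7.13% lower. Nqo1 met the 5 CPM minimum only through the 24 h library, where it was high (9.58 against 3.68 CPM). In non-cycling hepatocytes of both libraries the median was 0.30, with 2 members past 2-fold (Nqo1 0.82). With a pseudocount of 10 CPM 1 member passed, since Nqo1 was at 0.52 and Hmox1 at 0.74. The summed level of 16 genes known to respond to tissue dissociation was 1197 CPM in the adult control and 1410 CPM at 24 h. Among them the chaperone gene Hsp90aa1 was at 367 CPM in the control and 602 CPM at 24 h. Fos (31.5 and 50.9 CPM), Jun (42.2 and 65.1 CPM), Jund (108 and 176 CPM), Fosb, Egr1, Atf3 and Btg2 were also higher at 24 h. Hspa1b (52.3 and 10.5 CPM), Hspb1 (19.6 and 3.48 CPM), Dusp1 (81.9 and 35.1 CPM), Junb, Ier2, Hspa1a, Dnajb1 and Zfp36 were lower. The part of these genes in the ratios was not tested.

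At 48 h the median was 0.02 (-0.08 to 0.15), beside -0.08 over 9035 genes, and 4 of 8 members were above the adult control, where 44.6% of all genes were. Nqo1 was the 1 member at least 2-fold higher, where 8.3% of genes were, and none was 2-fold lower, where 7.63% were. It met the 5 CPM minimum only through the 48 h library, where it was high (8.98 against 3.68 CPM). Leaving out the hepatocytes with markers of another cell class, which were most frequent in this library, gave a median of -0.02 and again 1 member past 2-fold. No member passed in non-cycling hepatocytes (Nqo1 0.37), with 0% to 30% mitochondrial UMIs (0.999) or with a pseudocount of 10 CPM (0.47). Without the adult control in the comparison, 48 h stood below 24 h for 7 of 8 members, though the intervals of Nqo1 and G6pdx held 0, and 41.4% of all genes stood above. The median was -0.49, beside -0.07 over 8817 genes. Hmox1 was the member at least 2-fold lower (log2 ratio -1.60, -1.87 to -1.33), a change found in 1.76% of genes. Srxn1 was 1.98-fold lower.

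At 96 h the median was 0.34 (0.24 to 0.56), beside 0.04 over 8890 genes. Nqo1 and Srxn1 were at least 2-fold higher, 2 of 7 members where 4.07% of genes were, and none was 2-fold lower where 1.88% of genes were. Only the 96 h library, where Nqo1 was high (11.8 against 3.68 CPM), brought it past the 5 CPM minimum. Srxn1 passed only with the hepatocyte described above, and 0 members passed in non-cycling hepatocytes or with a pseudocount of 10 CPM (Nqo1 0.67, Srxn1 0.89). From 48 h to 96 h the median difference was 0.37 beside 0.11 over all genes, and Gclc, at 1.09 (1.03 to 1.14), was the member past 2-fold, as were 4.38% of genes.

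In P14 the median was -0.44 (-0.53 to -0.30), beside -0.26 over 9011 genes, so the median of all genes was itself below 0. Scaling by trimmed mean of M-values moved the median of all genes to 0.08 and that of the members to -0.10. Txnrd1 (log2 ratio -1.59, -1.68 to -1.50) and Hmox1 (-1.52, -1.83 to -1.21) were at least 2-fold lower, 2 of 7 members where 13.8% of genes were lower by as much and 7.89% higher. Hmox1 met the 5 CPM minimum only through the control, where it was high (7.36 against 1.90 CPM). Txnrd1 was 3.06-fold and Hmox1 3.86-fold lower than in the adult control. Txnrd1 was at -0.69 where at least 5% of UMIs came from Alb, Apoa1 and Ttr, which left 47 control hepatocytes, and Hmox1 was at -0.54 with a pseudocount of 10 CPM and -0.90 with 10% to 20% mitochondrial UMIs. Gclm, at -0.28, stood near the median of all genes and was 0.06 above the control with the other scaling, which gave -0.07 for Nfe2l2, -0.14 for Gclc and -0.19 for Srxn1. Nqo1, at 0.85 (0.50 to 1.20), was the one member whose interval lay above 0.

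Shares of hepatocytes with a UMI were compared after each cell was thinned to 5000 UMIs, because depth differed between libraries. Srxn1 was found in 6.27% (5.27% to 7.39%) of P14 hepatocytes, 7.46% (5.85% to 9.35%) in the control, 23.4% (21.0% to 26.0%) 24 h after PHx, 14.0% (11.6% to 16.8%) at 48 h and 15.2% (12.7% to 17.9%) in the 96 h library. Without thinning these shares were 36.0%, 25.7%, 62.1%, 58.6% and 46.6%. In barcodes with T or NK cell markers, at the same thinned depth, 1.32% to 4.90% had a Srxn1 UMI.

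Txnrd1 was found in 15.4% of thinned hepatocytes in P14, 37.5% in the control, 57.9% 24 h after PHx, 44.1% at 48 h and 39.6% in the 96 h library. T or NK cell barcodes had 13.0% to 30.4%, so P14 hepatocytes, unlike those of the adult libraries, were below the T or NK cell barcodes of their own library (27.6%). Nqo1 was found in 1.62% (0.910% to 2.66%) of adult control hepatocytes and 3.20% to 3.59% in the others, against 0 to 1 positive T or NK cell barcode per library. For this share the interval of the control overlapped that of every other library. Hmox1 was found in 6.50% of hepatocytes at 24 h and 0.902% to 3.46% elsewhere, against 0% to 1.81% of T or NK cell barcodes. The G6pdx share in hepatocytes, 0.256% to 0.902%, was below that in T or NK cell barcodes in every library (2.54% to 6.58%). At the measured amount of free RNA, 1.19% to 7.75% of the G6pdx UMIs in hepatocytes would come from it. Before thinning, the T or NK cell barcodes used had median depths of 6532 to 7879.5 UMIs.

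More members were seen together in 1 cell at 24 h than in the other libraries. At 5000 UMIs, at least 4 of the 8 members were detected in 19.4% (17.2% to 21.8%) of hepatocytes at 24 h. The share was 2.28% (1.69% to 3.01%) in P14, 5.84% (4.42% to 7.55%) in the control, 8.90% (6.92% to 11.2%) at 48 h and 10.9% (8.78% to 13.3%) in the 96 h library. The mean number of members detected was 2.57 at 24 h and 1.62 to 2.33 elsewhere. Counts at this depth are sparse, and this share moves with the level of each member.

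Hepatocytes in the cell cycle were compared with non-cycling hepatocytes of their own library, and cells that met neither rule were left out. After thinning to 5000 UMIs, a cell was cycling with UMIs of at least 3 mitosis genes and non-cycling with none and at most 1 replication gene. There were 255 cycling cells in P14, 175 24 h after PHx, 306 at 48 h and 79 in the 96 h library, but 4 in the control, which is therefore left out. Non-cycling cells numbered 1288 in P14, 379 at 24 h, 216 at 48 h and 522 at 96 h.

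Nqo1 was higher in cycling cells of all 4 libraries. It was at 15.2 CPM in cycling against 6.13 CPM in non-cycling hepatocytes of P14, 19.9 against 6.47 CPM 24 h after PHx, 12.6 against 4.46 CPM at 48 h and 31.6 against 7.09 CPM in the 96 h library. The log2 ratios were 1.19 (0.88 to 1.48), 1.48 (0.96 to 2.01), 1.31 (0.78 to 1.86) and 2.01 (1.50 to 2.51), beside medians of 0.15 to 0.26 over all genes. Nqo1 was the only member at least 2-fold higher in P14, 24 h and 48 h, where 8.79%, 8.96% and 8.19% of all genes were 2-fold higher. At 48 h it reached 5 CPM in the cycling cells only.

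At 96 h Nqo1, Txnrd1 and Srxn1 were each at least 2-fold higher in cycling cells, where 8.57% of genes that reached 5 CPM were. Txnrd1 was at 229 CPM in cycling against 107 CPM in non-cycling cells at 96 h, with a log2 ratio of 1.09 (0.92 to 1.26). Its ratio was 0.75 in P14, 0.87 at 24 h and 0.71 at 48 h. Srxn1 had ratios of 0.21 in P14, 0.80 24 h after PHx, 0.53 at 48 h and 1.24 in the 96 h library, the last rising to 1.49 (1.21 to 1.76) without the single hepatocyte, which was not cycling. Among cells in the middle of the lobule by a score of zone genes, with 18 cycling cells at 96 h, the ratio of Srxn1 was 0.05 (-0.75 to 0.77). The single hepatocyte, with 59 Srxn1 UMIs, was among the non-cycling cells of this middle range, and the ratio there without it was not computed. Nfe2l2 had ratios of 0.25, 0.70, 0.97 and 0.97 in the same order, the first near the median of all genes. Gclc lay between 0.22 and 0.45 and Gclm between 0.01 and 0.48. The intervals of Hmox1 and G6pdx held 0 in all 4 libraries. Cycling cells had a higher median depth than non-cycling cells after PHx, for example 25335 against 19293 UMIs at 24 h, though not in P14, and its part in the ratios was not tested.

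**Figure D3:**
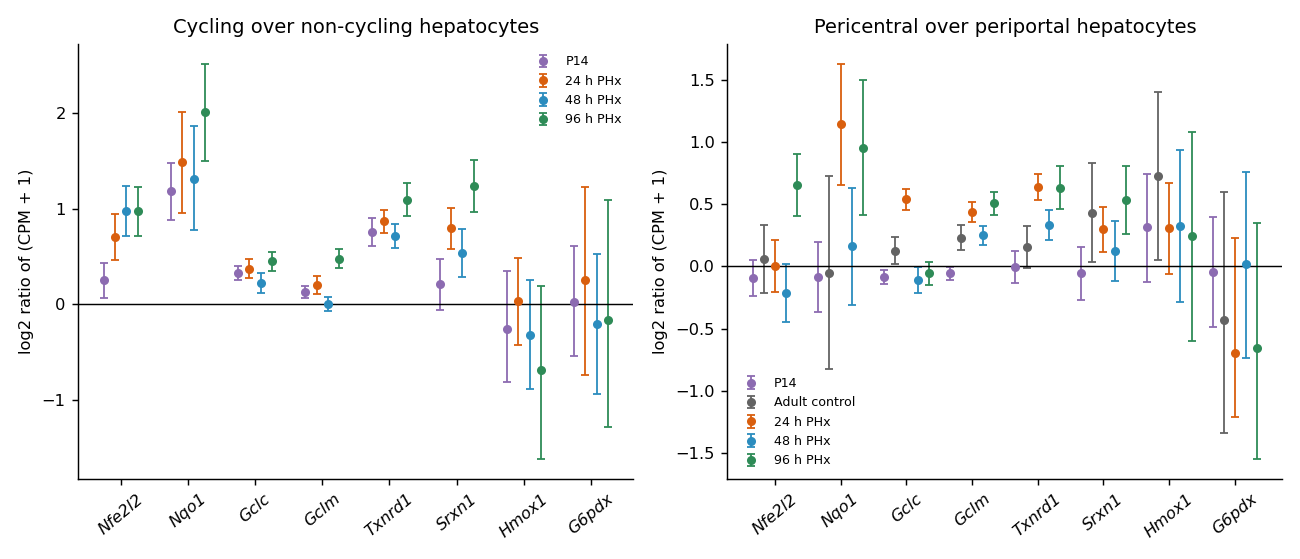
Log2 ratio of (CPM + 1) within each library (vertical axes) for the 8 members (horizontal axes), between cycling and non-cycling hepatocytes (left) and between the most pericentral and most periportal hepatocytes (right); bars are 95% intervals of counting error and colours are libraries. Nqo1 and Txnrd1 lie above 0 in all 4 libraries on the left, and Nqo1 and Txnrd1 at 24 h and 96 h lie above 0 on the right.

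Position along the liver lobule was read from a score of pericentral genes, expressed near the central vein (such as Glul and Cyp2e1), against periportal genes, expressed near the portal vein (such as Cyp2f2 and Hal). Cells at either end of the score, about 1 in 3 of each library, were compared, so the classes are ranges and not cell types, and 114 to 510 cells per library lay within 0.25 log2 units of a limit between them. Glul had log2 ratios of 2.99 to 5.66 between them, as the score fixes.

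At 24 h several members were higher in pericentral hepatocytes. Nqo1 was at 15.0 CPM in pericentral against 6.24 CPM in periportal cells (log2 ratio 1.14, 0.66 to 1.63), and was the 1 member past 2-fold, where 1.5% of genes were. Txnrd1 (0.64, 0.53 to 0.75), Gclc (0.54, 0.45 to 0.63) and Gclm (0.44, 0.36 to 0.52) were also higher, beside 0.06 over all genes. Srxn1 was at 0.30 (0.12 to 0.48). The intervals of Nfe2l2 (0.00302, -0.20 to 0.21), Hmox1 (0.31, -0.06 to 0.67) and G6pdx (-0.70, -1.21 to 0.23) held 0. Cycling cells numbered 76 in the pericentral and 39 in the periportal range. In non-cycling cells Srxn1 was at 52.9 CPM in pericentral against 59.1 CPM in periportal cells. Nqo1 (11.3 against 4.29 CPM), Txnrd1 (214 against 160 CPM), Gclc (344 against 273 CPM) and Gclm (455 against 310 CPM) were still higher in pericentral ones.

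At 96 h Nqo1 (0.95, 0.41 to 1.50), Nfe2l2 (0.65, 0.40 to 0.90), Txnrd1 (0.63, 0.46 to 0.81), Srxn1 (0.53, 0.26 to 0.81) and Gclm (0.51, 0.42 to 0.60) were higher in pericentral cells, beside 0.13 over all genes, whereas Gclc was at -0.06 (-0.14 to 0.03). Pericentral cells at 96 h were also deeper, with a median of 26007 against 19339 UMIs. They held 53 of the 79 cycling cells of that library. The 135 non-cycling pericentral cells had 7.85 CPM of Nqo1 and 37.7 CPM of Srxn1, against 8.35 and 40.8 CPM in all periportal cells. Nfe2l2 (62.4 against 47.9 CPM), Txnrd1 (119 against 102 CPM) and Gclm (498 against 382 CPM) were higher in the former. The part of cycling in these zone ratios was not tested. In the adult control the ratios were 0.43 (0.04 to 0.83) for Srxn1, 0.23 (0.13 to 0.33) for Gclm and 0.72 (0.05 to 1.40) for Hmox1. At 48 h Txnrd1 (0.34, 0.22 to 0.46) and Gclm (0.25, 0.17 to 0.33) were higher in pericentral cells, and Gclc was at -0.11 (-0.21 to -0.00166). In P14 the ratios of all members but Hmox1 lay between -0.09 and -0.00494, beside -0.05 over all genes.

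Cycling and non-cycling cells were also compared within each range of the zone score, as a choice made after seeing the data. Over the 11 ranges with enough cells, the log2 ratio of Nqo1 ran from 0.70 to 2.59 and that of Txnrd1 from 0.53 to 1.08. For Nqo1 the intervals of 3 of these ranges held 0, from the middle range at 24 h and from the middle and periportal ranges at 48 h. Nfe2l2 was at -0.12 in the middle range of P14. Srxn1 was at 0.05 in that of 96 h, whose non-cycling cells include the hepatocyte with 59 Srxn1 UMIs. The part of zone in the cycling ratios was not tested.

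Outside hepatocytes the members differed in where they were detected. Barcodes were assigned to a class when they had UMIs of at least 3 of its markers and more than of any other class. Hmox1 was highest in barcodes with macrophage markers, at 2268 CPM (1689 to 2982) in P14, 252 CPM (92.5 to 548) in the control, 1854 CPM (1331 to 2515) 24 h after PHx, 1402 CPM (1019 to 1882) at 48 h and 114 CPM (31.0 to 292) in the 96 h library. These rest on 4 to 10 barcodes per library. In the control the median depth of the 6 barcodes was 1497.5 UMIs, and 1 of them had 17482. Free RNA there came to 1328 UMIs per droplet, and its part in these levels was not tested. In barcodes with monocyte or dendritic cell markers Hmox1 was at 191 CPM (149 to 240) in the control and 302 CPM (267 to 341) 24 h after PHx, but at 27.0 CPM (18.8 to 37.6) at 48 h and 19.6 CPM (10.7 to 32.8) in the 96 h library. It was at 15.3 CPM (5.61 to 33.2) in P14. These levels came from few barcodes: after thinning, 11 of 60 barcodes at 24 h (18.3%, 9.52% to 30.4%), 6 of 35 in the control (17.1%, 6.56% to 33.6%), 9 of 90 at 48 h (10.0%, 4.68% to 18.1%) and 5 of 53 at 96 h (9.43%, 3.13% to 20.7%) had a Hmox1 UMI, with overlapping intervals, and 0 of 16 in P14.

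G6pdx was highest in barcodes with neutrophil markers, at 148 CPM in P14, 62.0 CPM in the control, 91.9 CPM 24 h after PHx, 144 CPM at 48 h and 107 CPM in the 96 h library. Neutrophils use NADPH for their oxidative burst. Hepatocytes of the same libraries had 0.720 to 1.71 CPM. Nqo1 was at most 2.80 CPM in T or NK and B cell barcodes and 7.91 to 17.7 CPM in endothelial ones, the latter from 2 to 8 UMIs per library. In free RNA it was at 3.95 to 7.16 CPM, inside the interval of the endothelial level in every library but that of 96 h. The subunits of glutamate-cysteine ligase parted in erythroid barcodes, where Gclm was at 314 to 498 CPM and Gclc at 9.12 to 76.8 CPM. Free RNA held 346 to 421 CPM of Gclm and 126 to 273 CPM of Gclc, so Gclc in these barcodes was below its level in free RNA.

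**Figure D4:**
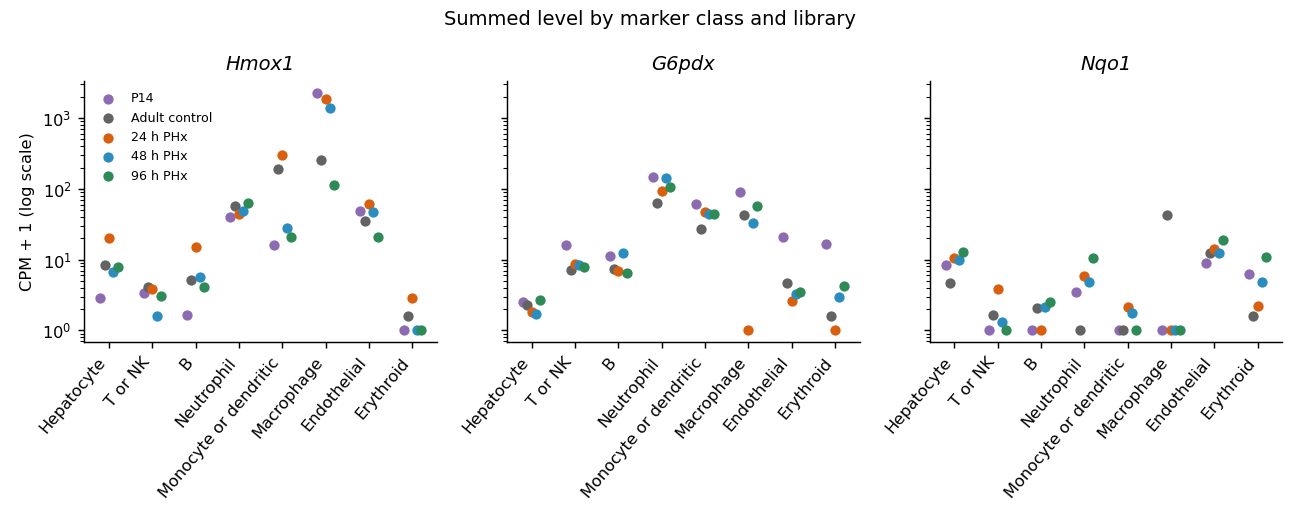
Summed level (vertical axis, CPM + 1 on a log scale) of Hmox1, G6pdx and Nqo1 in hepatocytes and in barcodes of 7 marker classes (horizontal axis); each point is 1 library, coloured by group, and macrophage points rest on 4 to 10 barcodes. Hmox1 is highest in macrophage barcodes and G6pdx in neutrophil barcodes.

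Of 57 further genes of the Nrf2 pathway, 53 had at least 5 CPM in the 24 h or the adult control library. At 24 h, 7 of these 53 were at least 2-fold higher and 3 at least 2-fold lower, with a median of 0.09, beside -0.00086 over all genes, of which 8.51% were higher and 7.13% lower by as much. Gstm3, a glutathione S-transferase, was at 19.8 CPM in the control and 554 CPM at 24 h (log2 ratio 4.74, 4.57 to 4.91), 61.6 CPM at 48 h and 73.9 CPM in the 96 h library. Gstm2 was at 26.7 CPM in the control, 252 CPM at 24 h and 180 CPM at 48 h, and Cbr1, carbonyl reductase 1, at 14.5 CPM in the control and 37.8 CPM at 24 h. Gsta1 was at 0.751 CPM in the control and 17.1, 13.4 and 20.8 CPM at 24 h, 48 h and 96 h, so it reached 5 CPM only after PHx. Genes of the Gsta and Gstm families have close copies, so their counts are uncertain where reads match more than 1.

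Mafg, the small Maf partner most expressed here, was lower at 24 h (33.9 CPM) and 48 h (27.3 CPM) than in the adult control (76.7 CPM), with log2 ratios of -1.16 and -1.46. Bach1, the repressor at the same elements, was at 15.2 CPM in P14, 67.4 CPM in the control, 38.8 CPM 24 h after PHx, 19.1 CPM at 48 h and 64.8 CPM in the 96 h library. Maff, another small Maf, was higher at 24 h (10.5 against 4.43 CPM in the control, log2 ratio 1.08) and at 1.82 CPM at 48 h. It met the 5 CPM minimum only through the 24 h library, where it was high. Rbx1, a subunit of the ligase that marks Nrf2 for degradation, was at 175 against 85.8 CPM (1.02) at 24 h. Keap1 stayed between 36.3 and 46.1 CPM in all 5 libraries. Gsta3 and Cyp2a5 were the other genes at least 2-fold lower at 24 h, with ratios of -1.09 and -1.02.

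At 48 h, 6 of 52 pathway genes were at least 2-fold higher, where 8.3% of all genes were, and 4 lower, where 7.63% were (median -0.17), among them Gstp1 with 1195 against 443 CPM and Gpx1, a glutathione peroxidase, with 1615 against 3297 CPM. At 96 h, 9 of 52 were at least 2-fold higher and 0 lower (median 0.22), where 4.07% and 1.88% of all genes were, with Gstp1 at 1560 CPM and Gsta2 at 24.8 against 6.61 CPM. In P14, 3 of 51 were at least 2-fold higher and 19 lower (median -0.69, beside -0.26 over all genes), where 7.89% of all genes were higher and 13.8% lower by as much. The lowest were Ugdh (log2 ratio -4.24), which makes UDP-glucuronate, the exporter Abcc3 (-3.08), Aox1 (-2.98) and Me1, malic enzyme (-2.95). Cbr1 (3.10), Gsta4 (1.93) and Ggct (1.56) were the 3 that were higher.

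The 96 h hepatocyte that held most Hmox1 was singled out after its values were seen. It had 29383 UMIs, 4674 genes, 20% mitochondrial UMIs and no UMI of a macrophage marker or a mitosis gene. It held 46 Hmox1 UMIs, where no other hepatocyte of that library had more than 2, together with 59 Srxn1, 131 Gclc, 31 Txnrd1 and 3 Nqo1 UMIs. Against the other 770 hepatocytes these levels were 583-fold higher for Hmox1, 56.3-fold for Srxn1, 12.8-fold for Gclc, 10.6-fold for Txnrd1 and 11.0-fold for Nqo1. Gclm was 1.84-fold higher and Nfe2l2, with 1 UMI, was not higher. Hepatocytes with at least 5 Hmox1 UMIs numbered 1 in P14, 1 24 h after PHx, 1 at 96 h and 0 in the control and at 48 h.

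**Figure D5:**
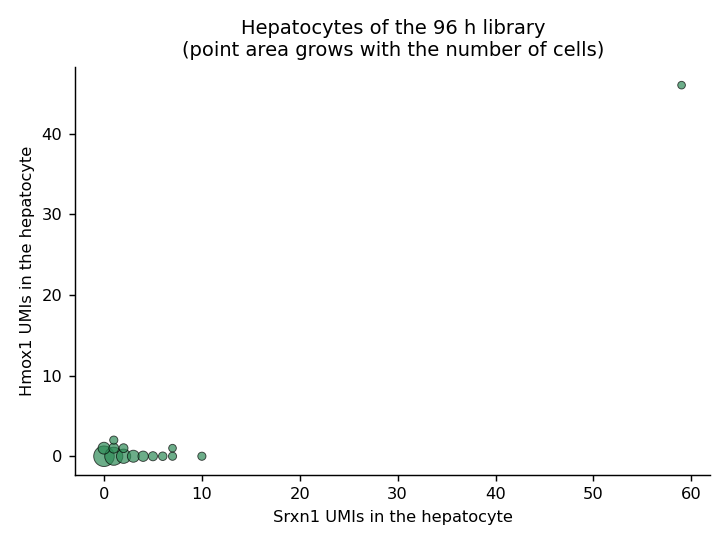
UMIs of Srxn1 (horizontal axis) and Hmox1 (vertical axis) in single hepatocytes of the 96 h library; each point is a pair of counts, and its area grows with the number of cells there. The cell with 59 Srxn1 and 46 Hmox1 UMIs stands apart from all others, which have at most 10 and 2.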

How the data were processed

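The authors deposited, for each of the 5 libraries, an unfiltered matrix of whole-number UMI counts per gene and barcode (31053 genes, 6794880 barcodes), written by software version 3.0.2 per the file headers. Per the submitters' processing notes, bcl2fastq 2.17.1.14, Cell Ranger, Seurat 3.1 and mm10 were used. Total depth was 80927744 to 136110607 UMIs per library. The protocol lists sample 2 among the operated mice, whereas title, source and age make it an adult control, as it was used here.

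Hepatocytes were selected as described in the report and their counts summed per library. Counts were divided by the total without 13 mitochondrial genes, and ratios used a pseudocount of 1 CPM. Intervals were exact Poisson for levels, an exact split of 2 counts for ratios and Clopper-Pearson for shares, all at 95%. For a list the median of its members' ratio bounds is given, which is not a 95% interval of the list median. Called means at least 2-fold apart among genes that reached 5 CPM in one of the groups compared; under the alternatives, members were counted in either direction with no such minimum. No test was made, since each group is 1 library. Free RNA was read from barcode ranks 20001 to 60000. No doublet caller was run; hepatocytes with at least 3 markers of another class were left out as an alternative. Other classes were barcodes of at least 1000 UMIs and under 30% mitochondrial UMIs.

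The members and all gene lists were chosen with earlier results of these data known. Besides the members, pathway genes were named where they had up to the 4 largest or 4 smallest ratios past 2-fold in a comparison with the control, and up to 3 neighbours were named for each member of at least 20 CPM on average. Others named for context were chosen after their values were seen. Promoter windows are from RefSeq on GRCm38.p6 and gene positions from GENCODE on GRCm38. Python 3.11.15, scipy 1.17.1 and, for scaling factors, edgeR 4.0.16 were used, and the ratios and intervals were tested on simulated counts. Alternatives covered scaling, pseudocount, the hepatocyte limits, free RNA, per-cell means, mixed and cycling cells.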

Additional observations from a re-analysis of the deposited data

Results flagged for a closer look

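Gclc stood on different sides of the adult control at different times after PHx, with counting intervals that did not hold 0. Its log2 ratio over that control was 0.11 (24 h), -0.54 (48 h) and, in the latest library, 0.55 (96 h). The 3 comparisons share the adult control library, each rests on 1 library, and the difference between times was not tested. The value at 24 h did not keep its sign under every alternative, whereas those at 48 h (-0.82 to -0.45) and 96 h (0.24 to 0.69) did.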

How the results depend on the processing

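Of 360 values of single members under an alternative, 332 kept their sign. Set against the counting interval of the main value, 251 lay inside it and 92 moved outside it. The other 17 changed sign where that interval did not hold 0. The TMM scaling moved the P14 median to -0.10 and Gclm in P14 to 0.063. A pseudocount of 10 CPM gave a median of 0.44 at 24 h, and the count past 2-fold was 1 in P14 and at 24 h but 0 at 48 h and at 96 h. With 10% to 20% mitochondrial UMIs the medians were 0.44 at 24 h, 0.29 at 48 h and -0.62 in P14, Gclc at 24 h was -0.068 and Nfe2l2 at 96 h -0.27. With 0% to 30% the medians were 0.49 at 24 h and 0.18 at 96 h, with counts of 0 at 48 h and 1 at 96 h, and Gclc and Gclm at 24 h were -0.00741 and -0.034. This range took in 1455 barcodes at 96 h, against 771 with the main rule. In non-cycling hepatocytes the medians were 0.30 at 24 h, -0.13 at 48 h and -0.53 in P14, the counts 0 at 48 h and 0 at 96 h, and Gclc and Gclm at 24 h and Txnrd1 at 48 h were -0.059, -0.023 and -0.031. Leaving out members under 5 CPM gave 0.82 at 24 h. Without the hepatocyte richest in Hmox1, 1 member was past 2-fold at 96 h. The causes of these shifts were not tested.

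Requiring 5% of UMIs from Alb, Apoa1 and Ttr left 47 adult control hepatocytes but 6 in the 24 h and 2 in the 48 h library. Medians were then -0.046 for P14 and 0.13 (24 h), -1.12 (48 h) and 0.71 (96 h) after PHx, and 5 members at 24 h and 4 at 48 h were past 2-fold in either direction, counted with no minimum level. Nqo1, Gclc and Gclm were at -1.41, -0.093 and -0.066 at 24 h, Nqo1, Txnrd1 and Srxn1 at -1.41, -0.052 and -3.83 at 48 h, and Nfe2l2, Gclm and Srxn1 at 0.64, 0.24 and 0.17 in P14. The few cells left make these counts small. In the middle range of the zone score of P14, the cycling ratio of Nfe2l2 was -0.12. CPM over all UMIs, at least 10000 UMIs, free RNA subtracted, means of single cells and the removal of mixed cells kept each median within the bounds given beside it and each count within 1.5 times. No paired analysis was possible because each group has 1 library. Low counts limit G6pdx, Nqo1 in the adult control (49 UMIs) and Hmox1 at 96 h, with 45 UMIs outside the hepatocyte richest in it.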

Other observations

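The genes whose levels over the 5 libraries lay closest to each member were read from 5056 genes of at least 20 CPM on average, by the Euclidean distance between centred log2(CPM + 1) values. For Txnrd1 they were Nek6 (distance 0.18), Lmo4 (0.24) and Atp6v0e (0.38), and Nek6 had 20.7 CPM (P14), 54.8 CPM (adult control), 105 CPM (24 h), 72.0 CPM (48 h) and 60.8 CPM (96 h). For Srxn1 they were Mad2l2 (0.45), Anxa5 (0.45) and Cyp3a11 (0.56), farther than the neighbours of any other member tested. Those of Gclc were Pctp (0.15), Smim22 (0.15) and Atp1b1 (0.20), those of Gclm Pex13 (0.07), Lamtor5 (0.09) and Commd7 (0.09), and those of Nfe2l2 Mapk6 (0.10), Fam136a (0.12) and Mrps10 (0.13). Among the members themselves the closest pair was Nfe2l2 and Gclm (0.44). With 5 libraries such distances are descriptions.

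The 96 h hepatocyte with most Hmox1 also held heat-shock transcripts. It had 178 UMIs of Hspa1b where its depth and the other hepatocytes of that library predict 0.147, 73 of Hsph1 (0.499 predicted), 203 of Hsp90aa1 (6.52), 23 of Hspa1a (0.00175) and 24 of Dnajb1 (0.459). Of the Nrf2 pathway lists it held 50 UMIs of Sqstm1 (2.51 predicted), the autophagy receptor p62, and 44 of Osgin1 (3.74 predicted). It also held 522 of Fth1 (120 predicted), ferritin heavy chain. Other genes of these lists lay below prediction, such as Gstm1 (12 UMIs, 48.3 predicted), Gpx1 (29, 72.5 predicted) and Gstp1 (17, 36.7 predicted).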
